A study of Rattus norvegicus with 18 samples.

Results

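The genes described here encode 6 basic leucine zipper (bZIP) transcription factors of the stress response: Atf4, Ddit3 (which encodes CHOP), Atf3, Atf5, Cebpb and Cebpg. They were chosen by name, and a probe set was taken for a member where the platform annotation gives it that gene alone. The 6 genes were 6 of 14217 genes named on the array and had 7 of the 31042 probe sets used. Atf4, Ddit3, Atf3, Atf5 and Cebpb had 1 probe set each, and Cebpg had 2 (1372885_at, the brighter and the one meant unless stated, and 1371038_at). All 7 lay above the filter on dim probe sets, so every member was tested. Atf3, the dimmest of them, was left out by the stricter filter used as an alternative.

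The cells were the rat insulinoma line INS-1, clone #4S2, in which doxycycline switches on a mouse insulin 2 proinsulin with the folding-deficient C96Y change, fused to GFP. Cultures were left untreated (control) or exposed to doxycycline at 2 µg/ml and collected after 24 h, after 48 h or after 5 days, with 3 cultures per group and 18 arrays in all. Same-numbered control and doxycycline cultures of a time point formed a pair. Every culture carried the transgene, the controls included, and the line was 1 clone sorted for bright cells, so no array held cells without the construct or cells given doxycycline with a correctly folding insert. In RNA from whole cultures, fewer cells of a kind and less RNA per cell cannot be told apart.

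ATF4 is made from its mRNA chiefly when the initiation factor eIF2alpha is phosphorylated by a stress kinase such as PERK, and it switches on genes of amino acid supply. CHOP, ATF3 and ATF5 are made downstream of ATF4, and CHOP is linked to the later, damaging phase of the response. C/EBPbeta and C/EBPgamma are dimer partners of ATF4. Beta cells are known for their sensitivity to this pathway because they fold large amounts of proinsulin. An array measures mRNA, so the control of ATF4 at translation is not seen in these values.

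The arrays carried the markers of beta cells: Ins1 stood between 17770 and 24700 in normalized signal, and all 11 beta-cell markers on the array passed the filter, while none of the acinar (6), fibroblast (5) or immune (4) markers with a probe set did. Of the other islet hormones Gcg, the glucagon gene, alone passed the filter, at 7.87 to 2373. It was lower with doxycycline in all 6 pairs of 24 h and 48 h, with a log2 fold change of -1.31 at 24 h, which did not pass, and of -2.71 at 48 h, which did; its part in the members' results was not tested. The library labelled doxycycline 5 days replicate 2 stood apart, with a 3′/5′ signal ratio of GAPDH of 2.91 against 1.05 to 1.19 in the other 17 and the lowest median signal (91.2, against up to 138.5). In 5 days replicate 1 the libraries went against their labels: a list of 15 ER folding genes stood 1.57 lower on the log2 scale in the library labelled doxycycline than in the one labelled control, whereas it was 0.84 to 1.38 higher with doxycycline in the other 8 pairs. The 5-day results are therefore given by label, pair by pair, after those of 24 h and 48 h.

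**Figure D1:**
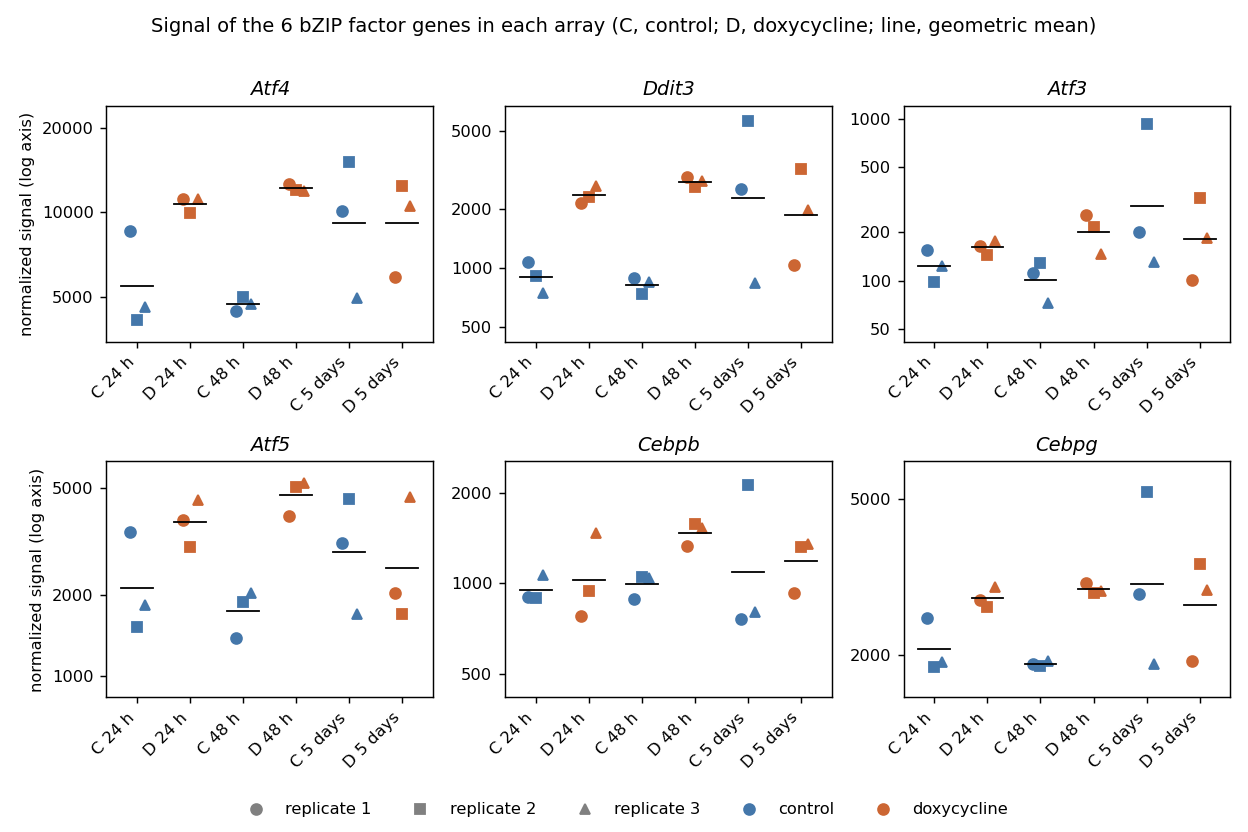
Normalized signal (log axis) of the 6 genes in each of the 18 arrays, by group on the x axis (C, control; D, doxycycline); marker shapes are the replicate numbers and the line is the geometric mean. At 48 h every doxycycline array lies above every control array for all 6 genes, and at 5 days the groups overlap for all 6.

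At 48 h all 6 genes rose with doxycycline. Ddit3 rose by 1.76 on the log2 scale, Atf5 by 1.43, Atf4 by 1.37, Atf3 by 0.98, Cebpg by 0.64 and Cebpb by 0.57. These calls come from limma with the pair as a block and Benjamini-Hochberg adjustment over 15521 probe sets, of which 2.33% were called higher. At 24 h the same fit called none of the 6, and 0.193% of all probe sets higher. Ddit3 came nearest at 24 h, at 1.39 ± 0.16 (SE) on the log2 scale with adjusted p = 0.0571.

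Atf4, the factor that heads this group, had signals of 8607, 4133 and 4597 in control replicates 1, 2 and 3 at 24 h and 11124, 9957 and 11159 with doxycycline. At 48 h the control signals were 4462, 4995 and 4713 and the doxycycline signals 12656, 12025 and 11943. The lowest doxycycline array was above the highest control array at both times, and control replicate 1 at 24 h stood well above the other 5 controls. The pair ratios were 1.29, 2.41 and 2.43 at 24 h, and averaged 2.59 ± 0.22 (SD, n = 3 pairs) at 48 h. The log2 fold change was 0.97 ± 0.20 (SE) at 24 h, with limma adjusted p = 0.149, and 1.37 ± 0.08 at 48 h, with adjusted p = 0.00929.

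The mRNA of Ddit3, whose product CHOP promotes cell death under lasting ER stress, read 1071, 908 and 746 in untreated cultures of 24 h, against 2149, 2312 and 2617 in treated ones. At 48 h it was at 883, 730 and 850 in controls and at 2908, 2608 and 2802 with doxycycline. No control array reached the lowest doxycycline array at either time. Its pairs averaged a ratio of 2.69 ± 0.76 (SD, n = 3) at 24 h and 3.39 ± 0.16 at 48 h. By fold change it ranked 14 of 15521 at 24 h and 15 at 48 h, the highest place of the 6 genes at each time. The 48 h call had limma adjusted p = 0.00669.

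The bases just before the transcription start of Ddit3 and Atf4 are shown because these 2 genes had the largest fold changes of the 6 at 24 h. They are RefSeq windows of the rat assembly GRCr8, plus strand, 250 bases 5′ to 3′ ending at the base before the start, at chr7:65001445-65001694 for Ddit3 and chr7:113684431-113684680 for Atf4. Capitals mark CCACG and CCAAT, the outer parts of the ER stress response element, on either strand (CGTGG and ATTGG on the reverse).
Ddit3: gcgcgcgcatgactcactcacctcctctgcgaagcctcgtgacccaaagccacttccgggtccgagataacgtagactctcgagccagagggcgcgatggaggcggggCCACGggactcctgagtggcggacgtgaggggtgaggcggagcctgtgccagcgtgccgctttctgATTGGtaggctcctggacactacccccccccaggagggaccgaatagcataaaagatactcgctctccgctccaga
Atf4: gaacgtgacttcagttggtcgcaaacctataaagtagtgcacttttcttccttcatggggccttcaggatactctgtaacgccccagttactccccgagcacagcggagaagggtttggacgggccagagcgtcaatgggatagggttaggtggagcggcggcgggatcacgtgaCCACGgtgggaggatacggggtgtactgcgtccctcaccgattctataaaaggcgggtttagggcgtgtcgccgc

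Ddit3 had 1 CCACG, at 142 to 138 bases before the start, and 1 CCAAT on the reverse strand, at 76 to 72 bases before it. Atf4 had 1 CCACG, at 75 to 71 bases before its start, and no CCAAT. Such short runs are common: of 33469 promoter windows of 300 bases (250 before and 50 after the start), 31.6% held a CCACG and 37.5% a CCAAT. The whole element, CCAAT and CCACG with 9 bases between, was in 0.0657% of windows, the C/EBP and ATF composite site TGATGNAA in 3.98% and the full cAMP response element TGACGTCA in 1.83%, each on both strands. None of these 3 was in the windows of the 5 members in the table (Atf4, Ddit3, Atf5, Cebpb and Cebpg); Atf3 had no entry. That says only that these exact letters are not in these windows. Sites with a mismatch, or further from the start, were not searched for.

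Atf5, a factor close to ATF4 in sequence and known for survival of beta cells, read 3450, 1517 and 1839 in the controls of 24 h, and doxycycline cultures read 3798, 3033 and 4518. At 48 h it was at 1383, 1894 and 2039 in controls and at 3935, 5053 and 5238 with doxycycline. The 24 h groups overlapped through control replicate 1, and the 48 h groups did not. The mean pair ratio at 48 h was 2.69 ± 0.14 (SD, n = 3), with limma adjusted p = 0.00669. At 24 h the log2 fold change was 0.81 ± 0.22 (SE), with adjusted p = 0.217.

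Atf3, an early stress factor that can repress its targets, varied most between arrays of a group at 48 h (SD of log2 signal 0.42 in controls and 0.42 with doxycycline, n = 3 each). The 24 h controls read 154, 99 and 123, and the doxycycline arrays 164, 144 and 176. At 48 h they were 111, 128 and 73 in controls and 255, 215 and 145 with doxycycline. The 24 h groups overlapped, while at 48 h the lowest doxycycline array (145) was above the highest control (128). The 48 h pairs gave ratios of 2.31, 1.69 and 1.99, with limma adjusted p = 0.026.

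Cebpg, the short C/EBP that pairs with ATF4 at amino acid response genes, gave 2480, 1864 and 1918 in untreated cultures of 24 h and 2754, 2656 and 2974 in treated ones. At 48 h its control signals were 1890, 1868 and 1929, and its doxycycline signals 3044, 2878 and 2913. The groups did not overlap at either time, and the 48 h pairs averaged a ratio of 1.55 ± 0.05 (SD, n = 3), with limma adjusted p = 0.0261. The second Cebpg probe set changed by 0.56 ± 0.08 (SE) on the log2 scale at 48 h, with adjusted p = 0.0414, and its groups did not overlap at 24 h or 48 h.

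Cebpb, a C/EBP activator of stress and metabolic genes, had the smallest log2 fold change of the 6 at 24 h and at 48 h. At 24 h the controls gave 900, 894 and 1066 and the doxycycline arrays 778, 947 and 1471: 1 pair was lower and 2 were higher. At 48 h it was at 887, 1055 and 1047 in controls and at 1333, 1579 and 1529 with doxycycline, and the groups no longer overlapped. The 48 h pairs gave an average ratio of 1.49 ± 0.02 (SD, n = 3), with limma adjusted p = 0.0309.

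Counting separation alone, 3 of the 6 genes (Atf4, Ddit3 and Cebpg) had every doxycycline array above every control array at 24 h, where 5.03% of all probe sets tested did. At 48 h all 6 did, where 11.3% of all probe sets did. A change of at least 2-fold in at least 2 pairs was met by Atf4 and Ddit3 at 24 h and by Atf4, Ddit3 and Atf5 at 48 h, against 0.29% and 0.509% of all probe sets. In 1 fit over the 12 arrays of both times, Ddit3 passed at 24 h (adjusted p = 0.00886; 1.09% of probe sets called higher) and Atf4 did not (adjusted p = 0.0505). All 6 passed at 48 h in that fit (5.64% called higher).

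The 48 h calls did not hold in every fit. None of the 6 passed with the dim probe sets kept, in a fit of all 18 arrays, or with pair 1 left out, and 0% of all probe sets were called higher in each. Without pair 2, 3 of the 6 passed (0.187% of all probe sets), and without pair 3, 2 passed (0.11%). Without the pair as a block 4 passed (1.34%), Atf3 (adjusted p = 0.144) and Cebpb (0.0674) not among them.

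**Figure D2:**
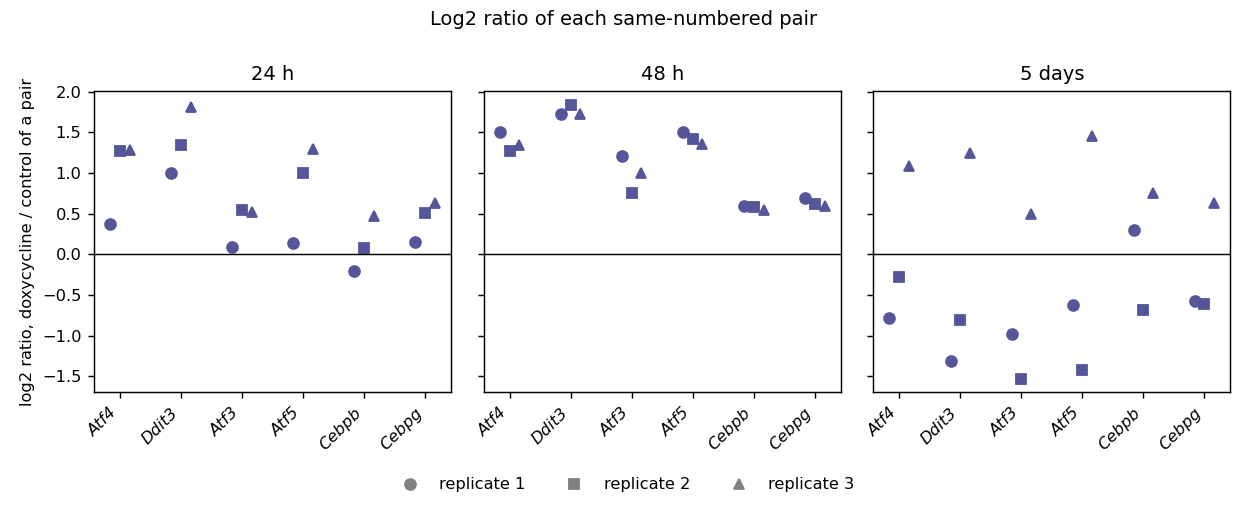
Log2 ratio of doxycycline to control for each same-numbered pair, in 1 panel per time point; marker shapes are the replicate numbers and the line is no difference. At 24 h pair 1 is the lowest for all 6 genes, at 48 h the 3 pairs lie close together, and at 5 days pair 3 alone is above 0 for 5 of the 6 genes, with Cebpb above it in pairs 1 and 3.

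The step from 24 h to 48 h was tested as a contrast of the 2 doxycycline effects. All 6 estimates were above 0, from 0.20 ± 0.14 (SE) for Cebpg to 0.62 ± 0.27 for Atf5 on the log2 scale. None passed, with limma adjusted p between 0.663 for Atf3 and 0.968 for the second Cebpg probe set, and 0% of all probe sets were called (0 of 15521; before adjustment 520 higher and 516 lower had p under 0.05). In untreated cultures the 48 h and 24 h levels did not differ by the test for any of the 6 (adjusted p = 0.999 for each; 0% of probe sets called, with 164 higher and 225 lower unadjusted).

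For Atf4 and Atf5, 1 untreated culture at 24 h stood above the others. Control replicate 1 at 24 h held 1.85 times the median of the 6 untreated 24 h and 48 h arrays for Atf4 and for Atf5, 1.32 times for Atf3, 1.30 times for Cebpg and 1.24 times for Ddit3, and 0.93 times for Cebpb. Its doxycycline partner lay within the range of the other 24 h and 48 h doxycycline arrays for Atf4, Atf3, Atf5 and Cebpg. Over the 24 h and 48 h arrays the SD of log2 Atf4 was 0.38 in the 6 controls and 0.12 in the 6 doxycycline arrays. For Cebpb the order was the opposite, at 0.13 in controls and 0.42 with doxycycline.

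With the 24 h pair of replicate 1 left out of the 12-array fit, a choice made after seeing the data, Atf4 (adjusted p = 0.0141), Ddit3 (0.0141) and Atf5 (0.0154) passed at 24 h, and 0.522% of all probe sets were called higher. The other 3 did not pass. Leaving the same pair out of the fit of the 24 h arrays alone gave no call among the 6, and 0 of 15521 probe sets were called. In the 12-array fit, leaving it out raised the 24 h estimates, to 1.27 for Atf4 and 1.15 for Atf5 on the log2 scale.

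Genes that ATF4 and its partners are known to act on were described from lists. Of 27 tested genes of amino acid metabolism and transport, 22 rose at 48 h and none fell. Their median log2 fold change was 0.91, against -0.01 over all probe sets tested. Of all probe sets tested, 2.33% rose and 185 of 15521 fell at 48 h. None of the 27 passed at 24 h, where the median was 0.54 and all 27 estimates were above 0. Over all probe sets tested, 47.5% of the 24 h estimates were above 0. Slc7a11, the cystine importer, rose by 3.80 ± 0.19 (SE) on the log2 scale at 48 h (limma adjusted p = 0.00669). Psat1 of serine synthesis rose by 1.64 and the neutral amino acid transporter Slc1a4 by 1.45. Mthfd2, a mitochondrial folate enzyme, rose by 1.35.

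Of 18 tested stress output genes of ATF4 and CHOP, 6 rose at 48 h and none fell. Of all probe sets tested, 2.33% rose and 185 of 15521 fell. The median of the 18 genes was 0.37, against -0.01 over all probe sets tested. None of them passed at 24 h, where their median was 0.17 and 0.193% of all probe sets rose. Trib3, a pseudokinase that binds ATF4 and CHOP, rose by 3.85 ± 0.15 (SE) and Chac1, which degrades glutathione, by 2.32 ± 0.10 (limma adjusted p = 0.00669 for each). Gpt2 rose by 2.41 and Herpud1, a component of ER-associated degradation, by 1.80. The other 2 were Nupr1 (1.41) and Ppp1r15a (0.82). These last 2 were named after their values were seen.

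Upstream of ATF4, 3 of 16 tested genes rose at 48 h and none fell, where 2.33% of all probe sets tested rose. They were Dnajc3 (1.26, adjusted p = 0.016), an inhibitor of eIF2alpha kinases that also works as an ER co-chaperone, Eif2ak3 (0.94, adjusted p = 0.0242), which encodes PERK, and Ppp1r15a (0.82, adjusted p = 0.0463), the phosphatase subunit that reverses the kinases' mark. Dnajc3 alone of the 16 had risen at 24 h, by 1.08 (limma adjusted p = 0.0237). Ppp1r15a is also counted among the stress output genes, and Dnajc3 is also among the 15 ER folding genes. Of these 15, 7 rose at 24 h, with a median of 0.89, and all 15 at 48 h, with a median of 1.05. Of all probe sets tested, 0.193% rose at 24 h. The difference of the ER folding genes from the members was not tested. At 48 h Sdf2l1 rose by 1.86, the prolyl isomerase gene Fkbp11 by 1.59, Creld2 by 1.37 and the co-chaperone gene Dnajb9 by 1.30. Of the 11 beta-cell markers 3 fell at 48 h, with a median of -0.31, where 185 of 15521 probe sets fell. The summed signal of the markers was 110890 to 122610 in the 48 h controls and 95402 to 108770 with doxycycline. The part of these levels in the members' results was not tested.

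**Figure D3:**
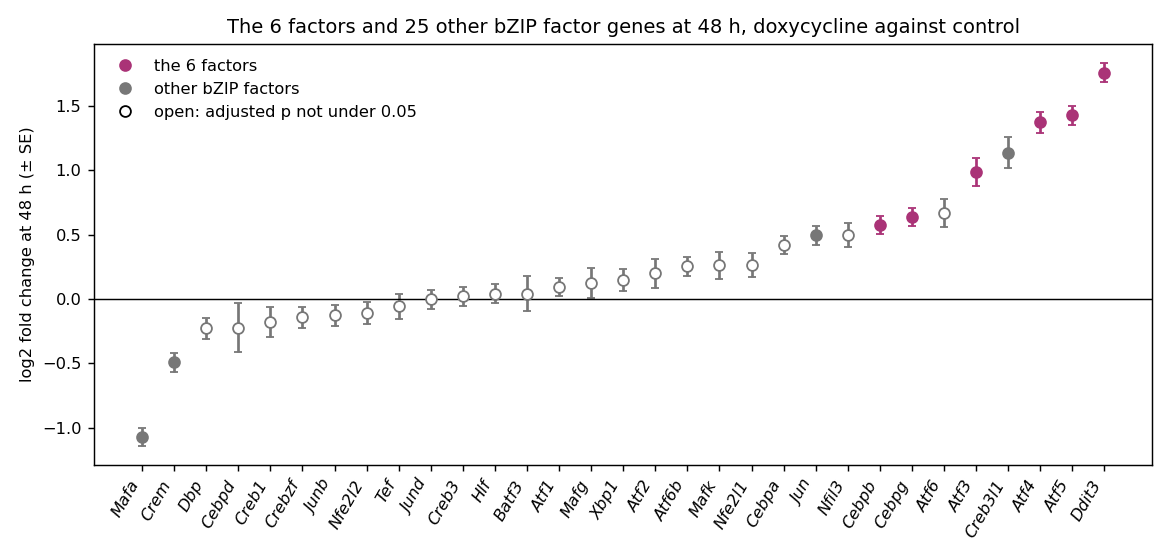
Log2 fold change (± SE) at 48 h for the 6 genes (purple) and 25 other tested bZIP factor genes (grey), in order of size; filled points passed the limma test. Ddit3, Atf5 and Atf4 are the 3 highest of the 31, and Mafa is the lowest.

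Most other bZIP genes did not pass. Of 25 other bZIP genes tested, 2 rose and 2 fell at 48 h and 21 did not pass. Their median log2 fold change was 0.04, against 1.18 for the 6 members. The members were chosen with earlier results of these data known, so the 2 medians are description only. Of all probe sets tested, 2.33% rose and 185 of 15521 fell. Creb3l1, a membrane-bound factor of secretory cells, rose by 1.14 ± 0.12 (SE) with limma adjusted p = 0.024, and Jun, an AP-1 subunit, by 0.49 ± 0.07 with adjusted p = 0.0383. Mafa, an activator of the insulin gene that the marker list also holds, fell by 1.07 ± 0.07 (adjusted p = 0.0118), and Crem, of the cAMP response family, fell by 0.49 ± 0.07 (adjusted p = 0.0397).

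Atf6 and Xbp1, bZIP genes of ER stress sensing, did not pass at 48 h. Atf6, which is cut from the ER membrane under stress, stood at 0.67 ± 0.11 (SE) with limma adjusted p = 0.0507, and Xbp1, whose mRNA is spliced by IRE1, at 0.15 ± 0.09 with adjusted p = 0.36. The array does not separate spliced from unspliced Xbp1. Nfil3 stood at 0.50 (adjusted p = 0.0614) and Cebpa at 0.42 (0.0532), and Cebpd, the C/EBP often studied beside Cebpb, at -0.22 (0.521). At 24 h none of the 25 passed, and the median was 0.00. Jun, Crem, Xbp1, Cebpa and Cebpd were named after their values were seen.

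At 5 days none of the 6 passed, with limma adjusted p of 0.935 to 0.999. No probe set was called (0% of 15521; before adjustment limma had 172 higher and 213 lower with p under 0.05, and the methods' t-test, which also called none, had 179 and 106). The rule of 2-fold in 2 pairs took none of the 6 and 0.296% of all probe sets. The control and doxycycline ranges overlapped for every member.

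The library labelled control 5 days replicate 2 had the highest signal of all 18 arrays for Atf4 (15191), Ddit3 (5630), Atf3 (929), Cebpb (2127) and Cebpg (5208), and for the second Cebpg probe set (2752). Against the median of the 6 untreated 24 h and 48 h arrays this was 7.95-fold for Atf3, 6.5-fold for Ddit3, 3.26-fold for Atf4, 2.74-fold for Cebpg and 2.19-fold for Cebpb, and Atf5 (4558) was 2.44-fold. The deposited values before quantile normalization gave 8.20-fold for Atf3 and 6.22-fold for Ddit3. The genes that ATF4 acts on were high in this library, and the folding genes were at the low end of the 24 h and 48 h controls.

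In numbers, the level of a list is the mean over its genes of the log2 signal less that gene's mean over the 18 arrays. The amino acid list stood at 1.02 in control 5 days replicate 2, the highest of the 18, and the stress output list at 1.08, also the highest. The ER folding list stood at -0.83 there. In that list the doxycycline arrays of 24 h and 48 h lay between 0.21 and 0.77. The controls of those times lay between -0.83 and -0.25. The lowest of the 18 was the library labelled doxycycline 5 days replicate 1, at -1.04. Control replicate 1 at 24 h was alike in kind, with the amino acid list at 0.20 (the other 5 controls of 24 h and 48 h were at -0.66 to -0.56) and the ER folding list at -0.83, the lowest of those 6 controls.

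**Figure D4:**
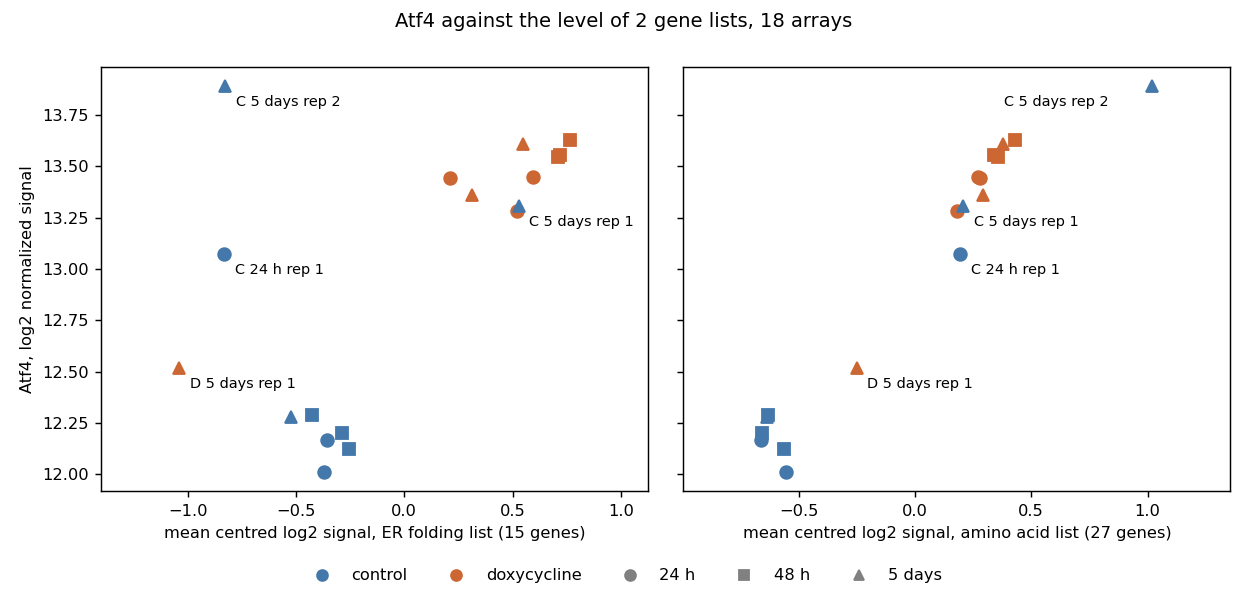
Log2 normalized signal of Atf4 in each of the 18 arrays against the level of 15 ER folding genes (left) and of 27 amino acid genes (right); colour is the treatment label and shape the time. Atf4 follows the amino acid list in all arrays (r = 0.971). In 2 control arrays (24 h replicate 1 and 5 days replicate 2) the ER folding level is -0.83. Control 5 days replicate 2 has the highest Atf4 of the 18. Control 24 h replicate 1 ranks 11 of 18 for Atf4, above the other controls of 24 h and 48 h.

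Over the 18 arrays the Pearson correlation of Atf4 was 0.971 with the amino acid list and 0.577 with the ER folding list. For Ddit3 the values were 0.949 and 0.568, and for Cebpg 0.96 and 0.38. Over the 12 arrays of 24 h and 48 h the values with the amino acid list were 0.984 for Atf4, 0.928 for Ddit3 and 0.983 for Cebpg, and those with the ER folding list were 0.78, 0.919 and 0.803. The arrays share treatment and pairing, so these values describe them and carry no p.

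By pair at 5 days, replicate 1 had 5 of the 6 genes lower in the library labelled doxycycline, and Cebpb higher (932 against 759). Atf4 was at 5865 there against 10132 in the library labelled control, Ddit3 at 1031 against 2550, and Cebpg at 1922 against 2860. The ER folding list, as given above, and these genes ran the same way in this pair, opposite to their direction at 48 h. Atf3 was at 101 against 200 and Atf5 at 2032 against 3133.

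In replicate 2 all 6 were lower in the library labelled doxycycline, while the ER folding list was 1.38 higher there. Atf4 was at 12467 against 15191 and Ddit3 at 3221 against 5630. In the library labelled doxycycline Ddit3, Atf3 and Cebpg ranked 2 of 18 arrays and Atf4 3 of 18. Cebpb (1319) ranked 7, Atf5 (1705, against 4558 in its partner) ranked 15, and the second Cebpg probe set ranked 18. It is also the array with the high GAPDH ratio, and its part in these values was not tested.

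In replicate 3 all 6 were higher with doxycycline, as at 48 h. Atf4 was at 10516 against 4967, Ddit3 at 1990 against 837, Atf3 at 184 against 130, Atf5 at 4644 against 1701, Cebpb at 1352 against 803 and Cebpg at 2927 against 1890. The ER folding list was 0.84 higher in the same pair.

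With the labels of replicate 1 exchanged, as an alternative, the log2 fold changes were 0.58 for Ddit3, 0.53 for Atf4, 0.22 for Atf5, 0.20 for Cebpg (-0.56 for its second probe set), -0.02 for Atf3 and -0.08 for Cebpb. None passed, and 0% of all probe sets were called higher. Ddit3 alone of the 6 was then at least 2-fold higher in 2 pairs, as were 0.541% of all probe sets.

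**Figure D5:**
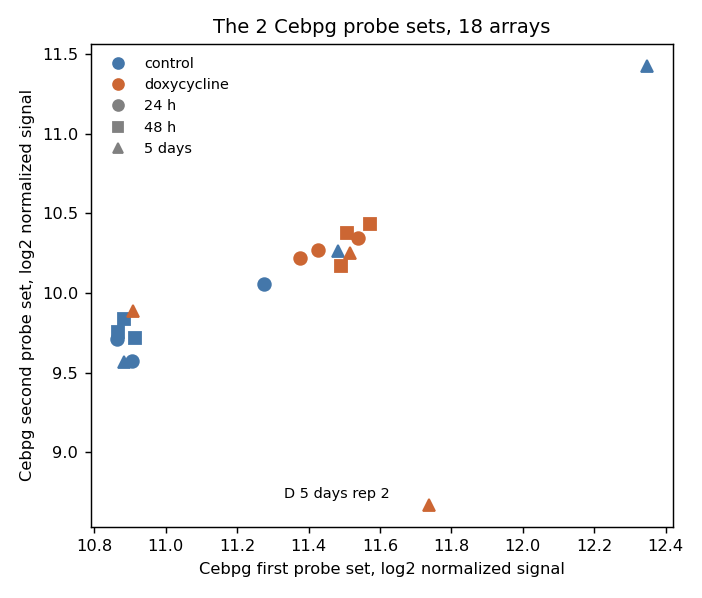
Log2 normalized signal of the second Cebpg probe set against the first in each of the 18 arrays; colour is the treatment label and shape the time. The library labelled doxycycline 5 days replicate 2 lies far below the line of the other 17.

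The 2 Cebpg probe sets gave a check on single arrays. They had a Pearson correlation of 0.574 over the 18 arrays and 0.972 over 17, without the library labelled doxycycline 5 days replicate 2. In that library the first probe set read 3413, the second highest of 18, and the second read 408, the lowest of 18. The level of Cebpg there is not settled by these data, and the 5-day log2 fold changes of the 2 probe sets, -0.18 and -0.82, differed with it.

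The genes whose signal followed each member most closely over the 18 arrays, of 9077 ranked by Pearson correlation, differed between members. Atf4 was followed by Slc7a11 (0.971), the isoleucyl-tRNA synthetase gene Iars1 (0.967) and the cationic amino acid transporter gene Slc7a1 (0.966). Ddit3 was followed by Serpinb9b (0.977), Cebpg (0.956) and Trib3 (0.953), and Cebpg by Nupr1 (0.977), Lrrc8d (0.961) and the leucyl-tRNA synthetase gene Lars1 (0.959). Atf3 had Tac1 (0.932), Fyn (0.93) and Lrrc8d (0.929). Atf5 had Ap5z1 (0.922), Aldh18a1 (0.901), an enzyme of proline synthesis, and Hrk (0.876). Over the 12 arrays of 24 h and 48 h, in the same order, Atf4 had 0.976, 0.973 and 0.979. Ddit3 had 0.966, 0.962 and 0.971 there, and Cebpg 0.987, 0.916 and 0.977. Atf3 had 0.849, 0.822 and 0.874, and Atf5 0.927, 0.969 and 0.952.

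For Cebpb the nearest genes were Hspa9 (0.881), Scaf11 (0.869) and Prickle1 (0.868). Over the 12 arrays of 24 h and 48 h their values were 0.798, 0.781 and 0.85. Between members over the 18 arrays, the lowest correlation was that of Atf3 with Atf5 (0.494), and Cebpb had 0.571 to 0.697 with the other 5. Over the 12 arrays of 24 h and 48 h Cebpb had 0.487 to 0.623 with the other 5, and the other 5 had 0.748 to 0.992 with each other. Among the lists, Cebpb had 0.926 with the 25 other bZIP genes over those 12 arrays and 0.439 with the amino acid list, where Atf4 had 0.263 and 0.984. These too are descriptions of arrays that share treatment and pairing.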

How the data were processed

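Total RNA of 18 cultures was labelled and hybridized to Affymetrix rat genome arrays. The authors deposited 1 linear intensity per probe set and array, scaled before deposit; no source used here names the program that summarized the probes. An array gives no read depth, and 3 cultures per group limit the precision. From the 31099 probe sets 57 controls were left out. Intensities were quantile normalized (limma 3.58.1, R 4.3.3), values under the 10th percentile (5.99) were set to it and log2 was taken. Fold changes of dim probe sets are understated by this floor. Probe sets whose mean log2 signal was under the 50th percentile were left out, and the other 15521 were tested with limma, 6 arrays per time point, pair as a block, two-sided, Benjamini-Hochberg threshold 0.05. "Rose" and "fell" mean past that threshold. The study's methods describe 3 independent experiments, and same numbers were taken as pairs. Deviations of same-numbered cultures correlated at 0.256 to 0.667 at 24 h and 48 h, and more weakly, at 0.109 to 0.149, at 5 days. Differently numbered cultures were not compared.

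Genes were named from the platform annotation: 20826 probe sets had 1 gene, 436 several and 9780 none. A gene of a list stands by its brightest probe set. By rule, every member, its 3 nearest genes and, from each list, up to 4 genes of largest change at 48 h are named: among those past the threshold, or, for other bZIP factors, among all tested. Marker lists served as a check only. The members and lists were chosen with earlier results of these data known. The fit was tested on simulated data. Alternatives were other normalization, floor, filter, block and arrays, the methods' t-test, a 2-fold rule, exchanged labels and each replicate left out.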

Additional observations from a re-analysis of the deposited data

How the results depend on the processing

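At 24 h, where none of the 6 genes passed, 2 passed with a stricter filter on dim probe sets, which left Atf3 out. The second Cebpg probe set passed there too (limma adjusted p = 0.0429). In 1 fit of the 12 arrays of 24 h and 48 h, 1 gene passed at 24 h, and 2 met the rule of 2-fold in 2 pairs. In the 12-array fit without the 24 h pair of replicate 1 (chosen after seeing the data) 3 passed. Leaving out each replicate gave 0. At 48 h, where 6 passed, 0 passed with no filter on dim probe sets, 0 in 1 fit of all 18 arrays, 3 by the methods' t-test, 3 by the 2-fold rule, 4 without the replicate block, and 0 to 3 with 1 replicate left out. Every 48 h estimate stayed above 0 in all of these. At 5 days 1 gene met the 2-fold rule with the labels of replicate 1 exchanged (chosen after seeing the data), as did 84 probe sets of 15521 higher and 68 lower. The cause of these changes was not tested.

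Over all probe sets, 30 were higher and 2 lower at 24 h, and 361 and 185 at 48 h. With any 1 replicate left out, 0 were called at 24 h. With no filter (31042 probe sets) both times gave 0. Unadjusted, 1318 were then higher and 1142 lower at 24 h, and 1869 and 1724 at 48 h. With a stricter filter (7761 probe sets) the counts were 278 and 116 at 24 h, and 825 and 783 at 48 h. The 12-array fit gave 169 and 45, and 876 and 734; without the replicate block the counts were 0, and 208 and 67; in 1 fit of all 18 arrays they were 0 at both times (346 and 239 unadjusted at 24 h, 1014 and 801 at 48 h); by the methods' t-test they were 0, and 121 and 41. At 5 days the fit of all 18 arrays with exchanged labels gave 284 and 141.

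Some log2 fold changes that had not passed changed sign. With 1 replicate left out, Cebpb at 24 h ran from -0.064 to 0.274. At 5 days Atf4 ran from -0.54 to 0.40, Ddit3 from -1.06 to 0.22, Atf5 from -1.02 to 0.41, Cebpb from -0.20 to 0.53, Cebpg from -0.591 to 0.029 and its second probe set from -1.57 to 0.15. With exchanged labels in replicate 1, in all 3 fits, Ddit3 was at 0.58, Atf5 at 0.22, Cebpb at -0.078 and Cebpg at 0.20. For the 48 h effect against the 24 h effect the second Cebpg probe set ran from -0.11 to 0.14 and was at -0.086 without the 24 h pair of replicate 1. For untreated cultures Atf4 ran from -0.42 to 0.11, Atf5 from -0.527 to 0.066, Cebpg from -0.20 to 0.003 and its second probe set from -0.11 to 0.13, the sign turning without control 24 h replicate 1 and, for the second probe set, also without control 48 h replicate 3. Beside the 48 h counts, the replicate block changed no call on the members.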
